A study of Mus musculus with 12 samples.

Results

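The genes described here are 31 genes of cholesterol and fatty acid synthesis, the main targets and regulators of the sterol regulatory element-binding proteins (SREBPs). They were taken by gene symbol from a list of the pathway, by a rule that uses no measured value, although earlier results of these data were known when the list was drawn up. All 31 were found among the 53801 genes of the deposited table. They comprise 18 enzymes of sterol synthesis, 5 regulators and carriers (Srebf1, Srebf2, Scap, Insig1 and Stard4) and 8 enzymes of fatty acid synthesis, elongation and desaturation. RNA was measured in 12 tumours that arose from LLC cells, the Lewis lung carcinoma line derived from C57BL/6 mice, placed in Matrigel in the flanks of female C57BL/6 mice aged 6 to 8 weeks. The 4 groups of 3 libraries received vehicle, cisplatin (a platinum compound that damages DNA), brivanib (a kinase inhibitor whose targets are the receptors of VEGF and FGF), or cisplatin with brivanib, called the combination here. All groups had 6 mice with 10 to 12 tumours in total, and intraperitoneal injections of 100 µL were given 2 times per week for 4 weeks once the tumour volume had reached 100 mm3. No drug dose was given in the sources used here. The hosts kept their own stroma and immune cells, so each library mixes carcinoma cells with host cells, and whether the 3 tumours within a group grew in different animals is not stated in the labels. The p-values therefore measure the spread between these libraries, which may in part be technical.

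Cells make cholesterol from acetyl-CoA through mevalonate, isoprenoids and squalene, and make saturated and monounsaturated fatty acids from the same precursor. When sterols in the endoplasmic reticulum fall, SCAP carries SREBPs to the Golgi, where they are cut, and the freed domain enters the nucleus and turns on the genes of both routes. When sterols are plentiful, INSIG proteins hold SCAP in the endoplasmic reticulum and the genes are turned down together. SREBP-2, from Srebf2, acts mostly on sterol genes and SREBP-1c, from Srebf1, mostly on fatty acid genes. SREBPs bind a sterol regulatory element (SRE) in target promoters and work with the factor NF-Y, which binds CCAAT boxes, while E-boxes are a further kind of site that SREBPs can bind.

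The promoters of 4 of the genes are shown because Insig1 and Msmo1 were among the genes lower in the combination, Hmgcs1 holds a match to the SRE, and Fasn was the fatty acid gene with a positive value there. Each is the run of 250 bases before the start in RefSeq on GRCm38.p6, read on the strand of the gene from 5′ to 3′, with motif matches in capitals. The window of Insig1 lies at chr5:28071162-28071411 (+), that of Msmo1 at chr8:64733579-64733828 (-), that of Hmgcs1 at chr13:119690101-119690350 (+) and that of Fasn at chr11:120824548-120824797 (-).
Insig1: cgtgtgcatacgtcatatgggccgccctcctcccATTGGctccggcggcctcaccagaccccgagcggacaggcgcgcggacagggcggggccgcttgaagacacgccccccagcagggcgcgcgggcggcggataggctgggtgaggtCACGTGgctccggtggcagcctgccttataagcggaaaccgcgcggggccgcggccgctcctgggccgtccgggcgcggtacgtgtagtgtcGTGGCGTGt
Msmo1: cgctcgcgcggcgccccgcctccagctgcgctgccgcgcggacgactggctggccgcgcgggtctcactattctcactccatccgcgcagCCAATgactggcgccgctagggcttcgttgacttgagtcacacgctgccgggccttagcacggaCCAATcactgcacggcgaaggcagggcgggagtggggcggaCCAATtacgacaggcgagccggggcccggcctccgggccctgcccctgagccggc
Hmgcs1: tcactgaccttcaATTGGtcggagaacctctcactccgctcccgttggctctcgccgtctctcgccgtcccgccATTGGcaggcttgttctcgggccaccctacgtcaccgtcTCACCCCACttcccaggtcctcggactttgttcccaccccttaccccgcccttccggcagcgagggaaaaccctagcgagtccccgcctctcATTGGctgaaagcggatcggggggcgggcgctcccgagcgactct
Fasn: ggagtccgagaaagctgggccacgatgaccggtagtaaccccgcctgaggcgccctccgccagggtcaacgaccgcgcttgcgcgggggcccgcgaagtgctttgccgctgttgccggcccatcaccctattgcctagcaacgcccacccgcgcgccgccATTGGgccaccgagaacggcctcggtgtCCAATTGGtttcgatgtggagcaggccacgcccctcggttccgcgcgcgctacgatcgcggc

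RefSeq promoters, from 250 bases before to 50 bases after the start, were given for 24 of the 31 genes (30 promoters, since some genes have several starts). Both strands were searched. The SRE form TCACNCCAC was in 1 of the 30 promoters (3.33%), that of Hmgcs1 at 137 bases before the start, and in 1.24% of all 32851 promoters of the table. The shorter form CACNCCAC, which lies inside the longer one, was in 3 (10.0%), of Acat2, Hmgcs1 and Insig1, against 6.24% of all promoters. In Insig1 it lay 9 bases before the start, on the other strand. The CCAAT box was in 20 of 30 promoters (66.7%), of 19 genes, against 37.4% of all promoters. Msmo1 held 3 boxes and Fasn held 3, of which 2 overlap in the run CCAATTGG. The E-box CACGTG was in 6 promoters (20.0%), of Dhcr7, Hsd17b7, Insig1, Sc5d and Scap, against 7.15% of all. These matches describe letters in a window and do not show binding. Sqle, Scd1, Scd2, Fdft1, Stard4, Fads1 and Fdps had no entry in the table.

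Depth was 17.161 M to 30.943 M recovered fragments per library (M, mega). Brivanib 5 stood apart: ribosomal-like features took 38.333% of its fragments against 0.316% to 0.692% in the other 11, and its summed FPKM (fragments per kilobase of transcript, scaled for depth) was 921510.4 against 471827.7 to 527656.7. The total by which its values had been scaled, 21.021 M fragments, lay within the range of the 12 libraries (18.002 M to 23.546 M). Of 12 lung and carcinoma epithelial markers only Cdh1 had a mean of at least 1 FPKM (1.12 to 3.23 in single libraries), and Krt18, Nkx2-1 and Sftpc were listed at 0 in all 12, so the labelled carcinoma identity could not be read from these markers. Genes with a mean of at least 1 FPKM were tested, 14246 in all, and the 31 genes all passed this limit. Each had between 94 and 12688 fragments in every library.

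In the vehicle tumours Scd2, a stearoyl-CoA desaturase, had the highest mean of the 31 genes at 66.6 ± 9.39 FPKM (SD, n = 3). Acly, which makes cytosolic acetyl-CoA, followed at 61.2 ± 11.2 and Fads1, the delta-5 desaturase, at 45.9 ± 4.73. Scd2 and Acly differed by less than their spread, and Fads1 lay below Acly by more than the SD of either. Insig1 at 45.3 ± 5.79, Fdps at 44.3 ± 14.2, Srebf2 at 43.0 ± 7.95 and Hmgcs1 at 40.0 ± 2.89 FPKM followed, and differed among themselves by less than the SD of Insig1. The lowest were Lss, the cyclase that makes lanosterol, at 7.26 ± 1.74 and Hsd17b7, a late sterol ketoreductase, at 5.56 ± 1.02 FPKM. The summed level of the 18 sterol enzymes was 267, 353 and 359 FPKM in vehicle 2, 3 and 5. It was 249, 223 and 321 in cisplatin 1, 2 and 3, and 210, 415 and 365 in brivanib 2, 3 and 5. In combination 2, 3 and 4 it was 167, 172 and 211 FPKM. The highest combination sum lay just above the lowest brivanib sum and below all vehicle and cisplatin sums. The 8 fatty acid genes summed to 287 ± 34.2 in vehicle, 276 ± 16.0 in cisplatin, 342 ± 122 in brivanib and 232 ± 27.8 FPKM in the combination. Their combination and vehicle ranges, 201 to 255 and 254 to 322, overlapped slightly.

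In combination tumours 2 of the 18 sterol enzymes, Sqle and Msmo1, and the regulator Insig1 fell against vehicle tumours, and the other 16 sterol enzymes did not pass the test. Fold changes are given as log2 differences of FPKM + 1 with their standard error (SE), and p-values come from limma with Benjamini-Hochberg adjustment over all 14246 genes, with a threshold of 0.05. Of the 31 genes 3 fell past this threshold, Sqle, Msmo1 and Insig1 (9.68%), and none rose; over all genes 0.519% fell and 1.82% rose, 2.34% in all. Higher calls made up 77.8% of all calls, and 60.5% to 67.9% under 4 other scalings. A negative value was found for 29 of 31 genes, and for 18 of 18 sterol enzymes, whose median was -0.59. The median over the 31 genes was -0.43, beside 0.04 over all genes tested. In 15 genes (48.4%) every combination library lay below every vehicle library, which held for 9.35% of all genes in that direction. No gene of the 31 lay wholly above vehicle, as 17.2% of all genes did. These were 10 sterol enzymes, Insig1, Stard4, Acaca, Scd2 and Fads1. In tumour RNA fewer cells that make sterols and less RNA per cell cannot be told apart.

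**Figure D1:**
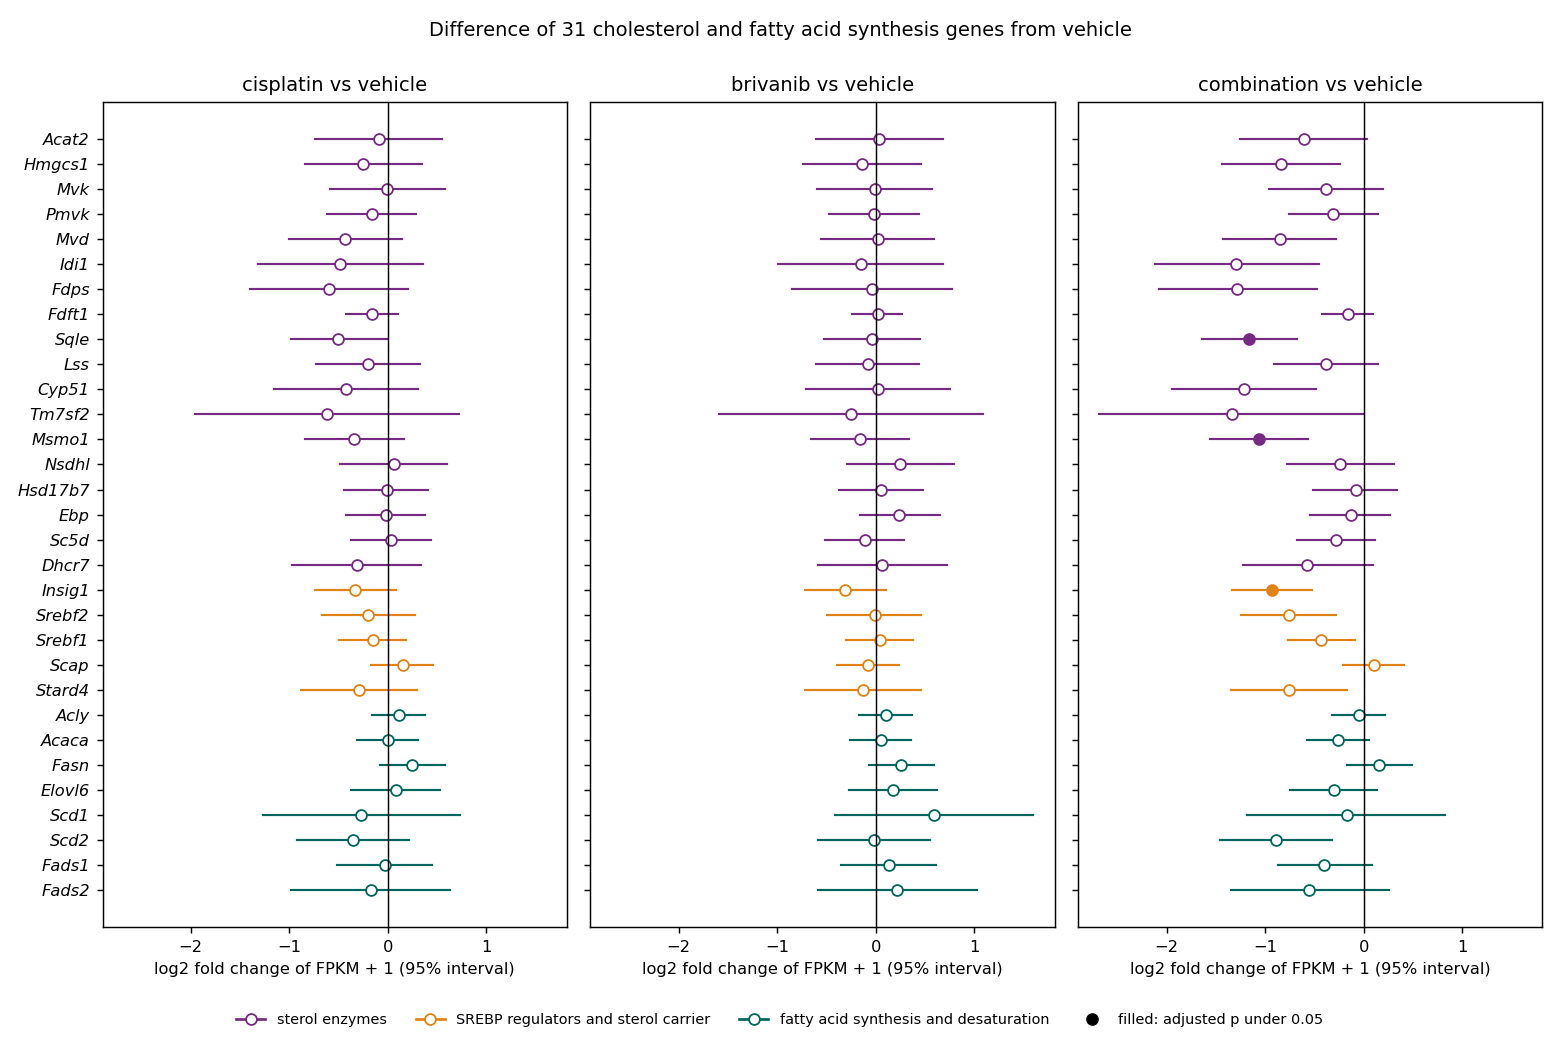
Log2 fold change of FPKM + 1 against vehicle for the 31 genes in cisplatin, brivanib and combination tumours, as points with 95% intervals from limma (3 libraries per group). Filled points passed an adjusted p of 0.05: Sqle, Msmo1 and Insig1 in the combination, and no gene with either drug alone; the combination panel lies left of 0 for 29 of 31 genes.

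Sqle encodes squalene epoxidase, which with the mevalonate-forming step sets the rate of sterol synthesis (chr15:59315077-59331192). Its level was 24.2, 38.8 and 32.7 FPKM in vehicle 2, 3 and 5, and 12.8, 11.9 and 16.1 in combination 2, 3 and 4. It was 19.3, 18.7 and 28.9 in cisplatin 1, 2 and 3, and 22.9, 36.0 and 34.3 in brivanib 2, 3 and 5. The combination libraries were below all 9 others, and the combination mean was 42.6% of the vehicle mean. Sqle fell by 1.16 ± 0.22 on the log2 scale (adjusted p = 0.0235 by limma). Msmo1, the methylsterol monooxygenase that removes methyl groups from lanosterol products (chr8:64718139-64733792), had 32.2, 38.3 and 39.9 FPKM in vehicle and 15.2, 17.9 and 18.3 in the combination. In the cisplatin libraries it had 25.2, 24.4 and 38.6 FPKM and in the brivanib libraries 21.6, 39.2 and 41.1, so here too the combination libraries were the lowest of the 12. The difference of Msmo1 from vehicle was -1.06 ± 0.23 (adjusted p = 0.0369 by limma). Insig1, the sterol-responsive anchor of SCAP (chr5:28071363-28078662), had 38.6, 48.4 and 48.8 FPKM in vehicle and 21.7, 20.4 and 28.0 in the combination. Its cisplatin values were 36.0, 31.2 and 40.2 FPKM and its brivanib values 26.4, 44.2 and 40.5. Brivanib 2 lay between the combination libraries, and all other libraries lay above them. Insig1 was lower than in vehicle by -0.93 ± 0.19 (adjusted p = 0.0291 by limma).

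The calls of these 3 genes rested on several libraries. Over 28 alternative settings Sqle was called in 19, Insig1 in 17 and Msmo1 in 17, with negative values in all. None of the 31 genes was called without vehicle 3, vehicle 5, combination 2 or combination 3. Of all genes 0.147%, 0.695%, 0.323% and 0.351% were called in these fits, against 2.34% with all libraries. Without vehicle 2 the count was 1 (0.288% of all genes). It was 5 without combination 4 (2.36%) and 7 without brivanib 2 (3.69%). The number negative among the 18 sterol enzymes stayed at 17 or 18 in every setting.

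**Figure D2:**
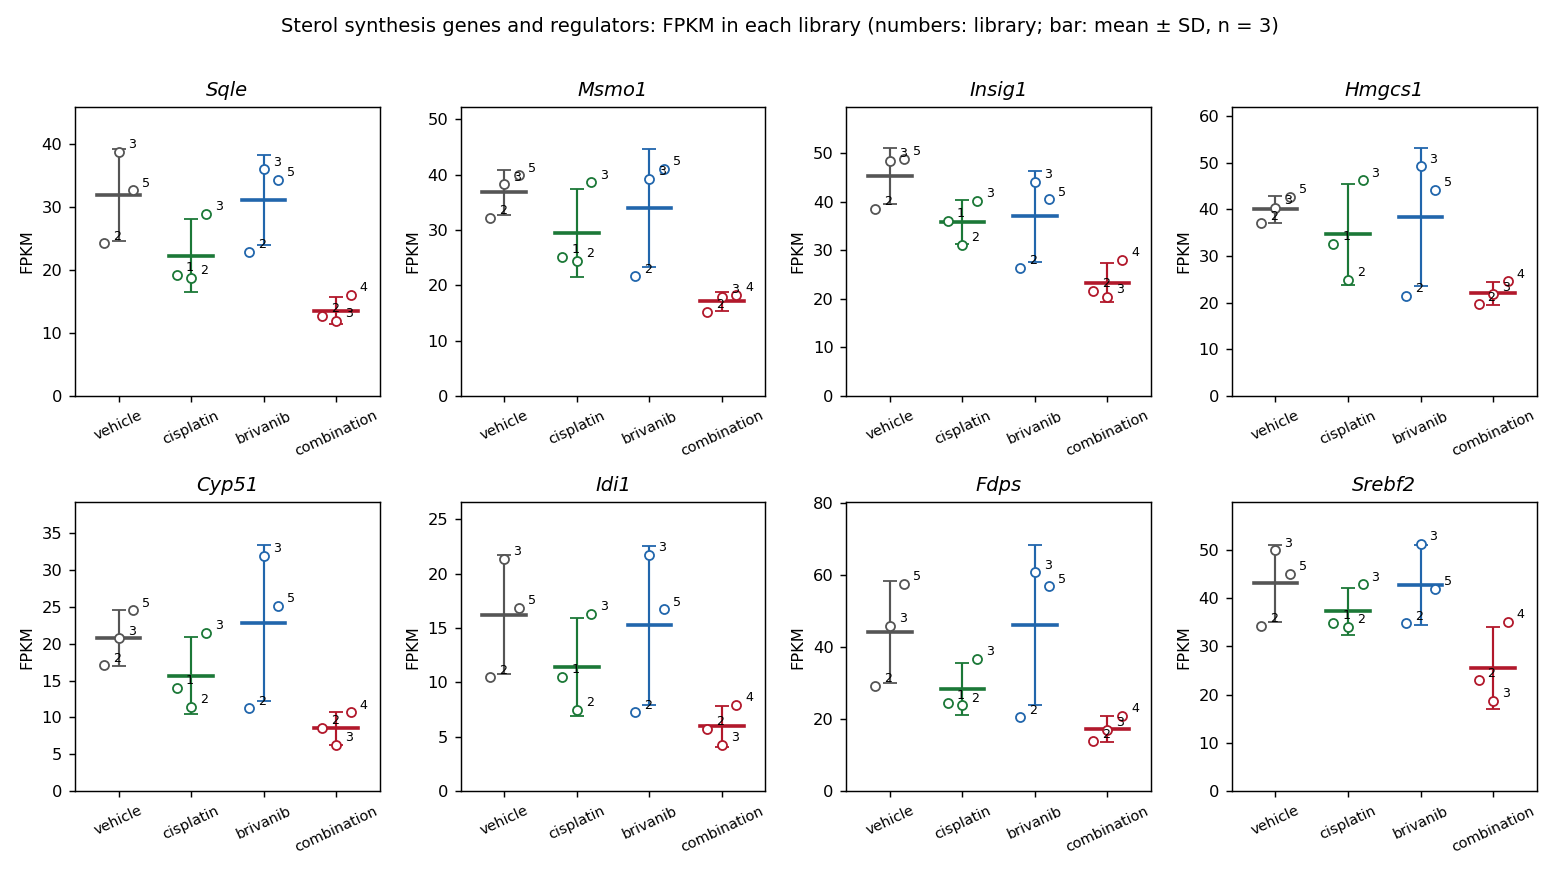
FPKM of 8 sterol genes and regulators in each library, by treatment group; circles are libraries with their number, thick lines the mean and error bars the SD of 3 libraries. In Sqle and Msmo1 the combination libraries are the lowest of the 12, at 11.9 to 16.1 and 15.2 to 18.3 FPKM.

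The enzymes of the mevalonate and isoprenoid steps had lower means in the combination, and none passed the threshold. Idi1, which isomerises isopentenyl diphosphate (chr13:8885501-8892451), had 10.5, 21.4 and 16.9 FPKM in vehicle and 5.71, 4.24 and 7.97 in the combination. Its difference was -1.29 ± 0.38 (adjusted p = 0.0987 by limma), and brivanib 2 (7.26 FPKM) and cisplatin 2 (7.49 FPKM) lay below combination 4. Fdps, farnesyl diphosphate synthase (chr3:89093588-89101959), had 29.3, 45.9 and 57.6 FPKM in vehicle and 13.8, 17.0 and 20.9 in the combination. The difference of Fdps was -1.28 ± 0.37 (adjusted p = 0.0903 by limma), and brivanib 2 at 20.5 FPKM lay within the combination range. Hmgcs1, which makes HMG-CoA and whose SRE is shown above (chr13:119690379-119708260), had 37.0, 40.3 and 42.7 FPKM in vehicle and 19.6, 21.8 and 24.6 in the combination. Its mean there was 54.9% of the vehicle mean, a difference of -0.84 ± 0.27 (adjusted p = 0.127 by limma). Mvd, the last enzyme of the mevalonate steps, was at 51.8% of its vehicle mean (-0.85 ± 0.26) and Acat2, the cytosolic thiolase that opens the route, at 62.8% (-0.61 ± 0.30). The mevalonate kinases Mvk (-0.38 ± 0.27) and Pmvk (-0.31 ± 0.21) overlapped between the groups.

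Beyond squalene the differences were uneven. Cyp51, the lanosterol 14-demethylase (chr5:4081145-4104746), had 17.1, 20.7 and 24.6 FPKM in vehicle and 8.59, 6.29 and 10.7 in the combination, a difference of -1.21 ± 0.33 (adjusted p = 0.0808 by limma). Cyp51 was lower in each combination library than in each of the other 9. Fdft1, squalene synthase, had nearly the same level in vehicle and combination, 23.0 ± 1.12 and 20.5 ± 2.55 FPKM (SD, n = 3). Its log2 difference was -0.16, with a 95% interval of -0.42 to 0.09. Lss (-0.38), Nsdhl (-0.24), Ebp (-0.13) and Hsd17b7 (-0.08), which make lanosterol or act on later sterols, each overlapped between the groups. Sc5d, a late sterol desaturase, was lower in all combination libraries (10.3 to 11.2 FPKM) than in all vehicle libraries (12.9 to 13.7 FPKM), a small difference of -0.28 ± 0.18. Dhcr7, the last reductase of its branch, was at 65.6% of its vehicle mean (-0.57 ± 0.30). No transcript carried more than 24.0% of its FPKM averaged over the 12 libraries. The most abundant one carried 82.9% in brivanib 3 but was listed at 0 in vehicle 2 and 3 and combination 2 and 3. Its difference was 0.27.

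Tm7sf2, a sterol C14 reductase, needs a separate account. In the deposited table it had 10.0, 18.3 and 12.3 FPKM in vehicle and 2.16, 4.86 and 8.35 in the combination (-1.34 ± 0.61, adjusted p = 0.265 by limma). Of its FPKM 73.2% came from 1 transcript that GENCODE M21 assigns to the neighbouring gene Vps51, which ranged from 0.900 FPKM in cisplatin 3 to 14.5 in vehicle 3. Without that transcript Tm7sf2 had 3.78, 3.85 and 3.69 FPKM in vehicle and 0.794, 2.06 and 2.21 in the combination. The group means were then 3.77 ± 0.0834 and 1.69 ± 0.778 FPKM (SD, n = 3), a difference of -0.87 ± 0.24 (adjusted p = 0.0777 by limma). The vehicle and combination ranges did not overlap in either version.

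Among the regulators, neither SREBP gene nor Scap passed the threshold in the combination. Srebf2 (chr15:82147181-82205379) had 34.3, 49.8 and 45.0 FPKM in vehicle and 23.0, 18.7 and 35.1 in the combination, so that combination 4 overlapped vehicle 2 (-0.76 ± 0.22, adjusted p = 0.0903 by limma). Srebf1 (chr11:60199089-60222581) had 22.1, 23.4 and 24.9 FPKM in vehicle and 15.9, 14.1 and 22.4 in the combination (-0.43 ± 0.16, adjusted p = 0.16 by limma), again with combination 4 inside the vehicle range. Without combination 4 both passed the threshold, beside Insig1, Sqle and Scd2. Scap, the escort protein (chr9:110333288-110384950), had 19.7, 24.5 and 19.0 FPKM in vehicle and 21.9, 19.7 and 26.5 in the combination. Its log2 difference was 0.10 with a 95% interval of -0.21 to 0.41, and its sign changed in 4 of the settings. Stard4, a carrier that moves cholesterol between membranes, had 12.3, 19.2 and 16.4 FPKM in vehicle and 7.76, 7.69 and 11.6 in the combination. The 2 ranges of Stard4 did not overlap (-0.76 ± 0.27, adjusted p = 0.153 by limma).

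Transcripts of the SREBP genes showed how RSEM divided their fragments. Of Srebf2, 75.4% was its coding transcript, at 28.7, 43.2 and 36.8 FPKM in vehicle and 18.7, 11.4 and 26.5 in the combination, so these groups did not overlap at the level of this transcript. A shorter Srebf2 transcript with a retained intron had 3.67 to 6.86 FPKM in vehicle and 10.9 to 19.9 in cisplatin. It had 3.04, 4.56 and 10.0 FPKM in brivanib 2, 3 and 5. In combination 2, 3 and 4 it had 1.64, 6.63 and 6.06 FPKM. The coding transcript in cisplatin was at 21.2, 22.4 and 21.6 FPKM, below all vehicle libraries, while the summed Srebf2 level in cisplatin was 37.2 ± 4.91 against 43.0 ± 7.95 FPKM (SD, n = 3). Srebf1 has an upstream start, used for SREBP-1a, and a downstream start, used for SREBP-1c. The transcript with the upstream start averaged 7.76 FPKM over the 12 libraries (36.0% of Srebf1) and that with the downstream start 1.03 (4.8%). A further transcript, annotated with neither start, carried 41.1%. The downstream transcript was highest in brivanib 3, at 2.90 FPKM, and was 0.739 ± 0.326 in vehicle and 0.624 ± 0.135 FPKM in the combination (SD, n = 3). For Sqle, a transcript 122 bases shorter than the main one held 20.8 FPKM in brivanib 5 and 12.0 in cisplatin 1 and was listed at 0 in the other 10 libraries. The summed Sqle values above include it, and the main transcript alone was at 11.8 FPKM in brivanib 5 and 6.85 in cisplatin 1, inside or below the combination range of 11.7 to 15.7.

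Of the 8 fatty acid genes none passed the threshold in the combination. Values were negative for 7 of 8, with a median of -0.28, and Acaca, Scd2 and Fads1 lay below vehicle in all 3 libraries. Scd2 (chr19:44293676-44306864) had 55.8, 73.2 and 70.6 FPKM in vehicle and 37.3, 23.2 and 50.02 in the combination, without overlap (-0.89 ± 0.26, adjusted p = 0.0937 by limma). Scd1, its paralog next to it on chromosome 19 and the main desaturase of fat tissue (chr19:44394451-44407709), had 21.9, 28.8 and 31 FPKM in vehicle and 22.6, 22.0 and 27.2 in the combination. For Scd1 the difference was -0.17 with a 95% interval of -1.18 to 0.83. Fasn, fatty acid synthase (chr11:120805846-120824547), had 28.3, 32.0 and 36.5 FPKM in vehicle and 40.8, 31.1 and 36.6 in the combination (0.16 ± 0.15, adjusted p = 0.619 by limma). Its interval of -0.17 to 0.49 excludes a fall of the size measured in Sqle. Acly was at 95.7% and Acaca, acetyl-CoA carboxylase, at 83.4% of the vehicle mean, with 95% intervals of -0.32 to 0.22 and -0.57 to 0.05. The desaturases Fads1 (-0.40 ± 0.22) and Fads2 (-0.55 ± 0.37) and the elongase Elovl6 (-0.30 ± 0.20) had lower means in the combination.

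**Figure D3:**
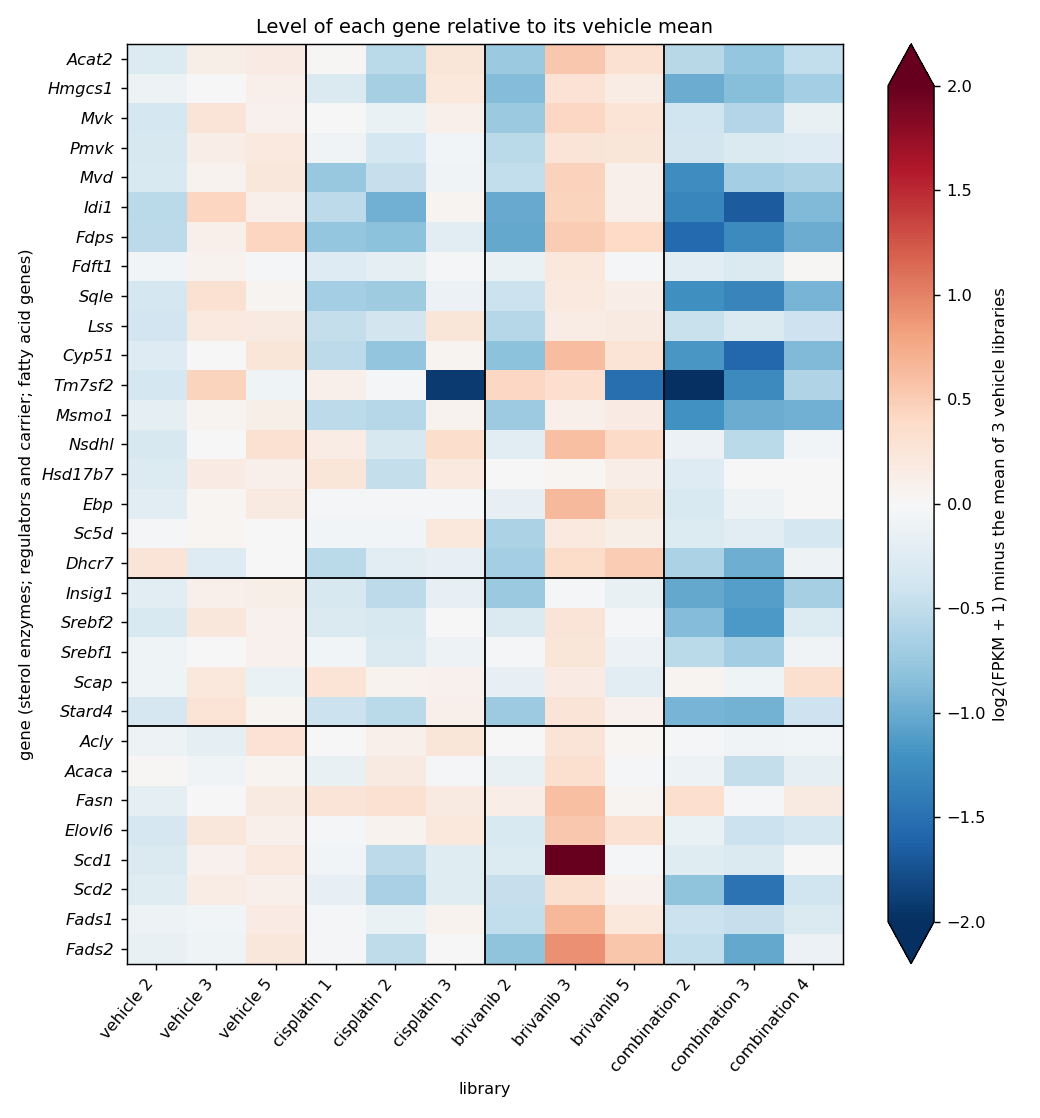
Level of the 31 genes in each of the 12 libraries, as log2(FPKM + 1) minus the mean of the 3 vehicle libraries; rows are ordered as sterol enzymes, regulators and carrier, and fatty acid genes, and the colour scale is cut at -2 and 2. The combination columns are lower for most sterol enzymes, while brivanib 2 is lower and brivanib 3 higher than vehicle for many genes.

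Cisplatin alone gave no call among the 31 genes by limma, where 0.19% of all genes were called (0.119% higher, 0.0702% lower, with 63% of calls higher and 18.8% to 36.4% under other scalings) and 1 of the 31 (Sqle) had an unadjusted p under 0.05, as did 14.3% of all genes. In all, 25 of 31 values were negative, with a median of -0.17 beside 0.07 over all genes tested, and no gene had groups without overlap, lower (6.72% of all genes) or higher (17% of all genes). The 3 genes with the smallest p were Sqle, Insig1 and Fasn. Sqle had 19.3, 18.7 and 28.9 FPKM in cisplatin (-0.50 ± 0.22, adjusted p = 0.333 by limma), with cisplatin 3 inside the vehicle range. For Insig1 the difference was -0.33 ± 0.19 (adjusted p = 0.46 by limma). Fasn had 38.7, 40.0 and 36.3 FPKM in cisplatin, 119% of the vehicle mean (0.25 ± 0.15, adjusted p = 0.486 by limma).

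Brivanib alone gave no call either, where 1.81% of all genes were called (1.71% higher, 0.105% lower); 0 of the 31 genes had an unadjusted p under 0.05 by limma, against 11.7% of all genes. The 31 values were divided, 15 negative and 16 positive, with a median of 0.02 beside -0.01 over all genes. This split was not stable: the number negative was 3 without brivanib 2, 6 without vehicle 3, 9 without vehicle 5, 21 without vehicle 2 and 26 without brivanib 3. It was 30 at equal FPKM totals, where the median of all genes was -0.34, and 21 when ribosomal-like features were removed before equalizing. With median-of-ratios scaling or quantile normalization the number stayed at 15. With the adipocyte, muscle or proliferation score in the fit it was 26 to 29. No gene had groups without overlap, higher (8.95% of all genes) or lower (6.9% of all genes). The lowest values of each gene in brivanib came mostly from 1 library: brivanib 2 was the lowest of the 3 for 27 of 31 genes, and brivanib 3 the highest for 26. For the sterol enzymes brivanib 2 summed to 210 FPKM, in the range of the combination, and brivanib 3 to 415, the highest of all 12 libraries. Fasn was at 35.2, 49.1 and 33.4 FPKM in brivanib 2, 3 and 5 (0.26 ± 0.15, adjusted p = 0.551 by limma). Insig1 differed by -0.31 ± 0.19 (adjusted p = 0.573) and Ebp, the sterol isomerase, by 0.24 ± 0.18 (adjusted p = 0.662 by limma). Vehicle 2 and cisplatin 2 were also the lowest of their groups, for 27 and 22 of 31 genes, and combination 4 was the highest of its group for 25.

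Scd1 stood at 117 FPKM in brivanib 3 against 18.5 to 31 in the other 11 libraries. The same library held the highest Fads2 (33.0 FPKM), Fads1 (73.3) and Fasn (49.1) values of the series. It was the only library with the brown fat marker Ucp1 above 0 (6.40 FPKM) and had the highest Adipoq (12.5 FPKM). The 18 adipocyte markers, of which 10 had a mean of at least 1 FPKM, summed to 333 FPKM in brivanib 3, 90.3 in brivanib 2 and 60.1 in brivanib 5. In combination 2, 3 and 4 they summed to 183, 402 and 126 FPKM and in the vehicle libraries to 44.8 to 46.0, while cisplatin spanned 51.7 to 101. Fabp4 alone gave 273 of the 402 FPKM in combination 3, and 97.1 FPKM in brivanib 3. Adipoq was 1.58 FPKM in combination 3, and the mean log2(FPKM + 1) of the markers was 2.1 there against 3.22 in brivanib 3. The adipocyte sums of the combination lay above those of vehicle, while the Scd1 values of these groups overlapped. Skeletal muscle markers, 12 of 16 with a mean of at least 1 FPKM, summed to 352 FPKM in brivanib 3 and 295 in brivanib 5. They were at 60.5 in combination 2 and at most 28.4 FPKM elsewhere. The part of fat or muscle in the brivanib values was not tested.

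**Figure D4:**
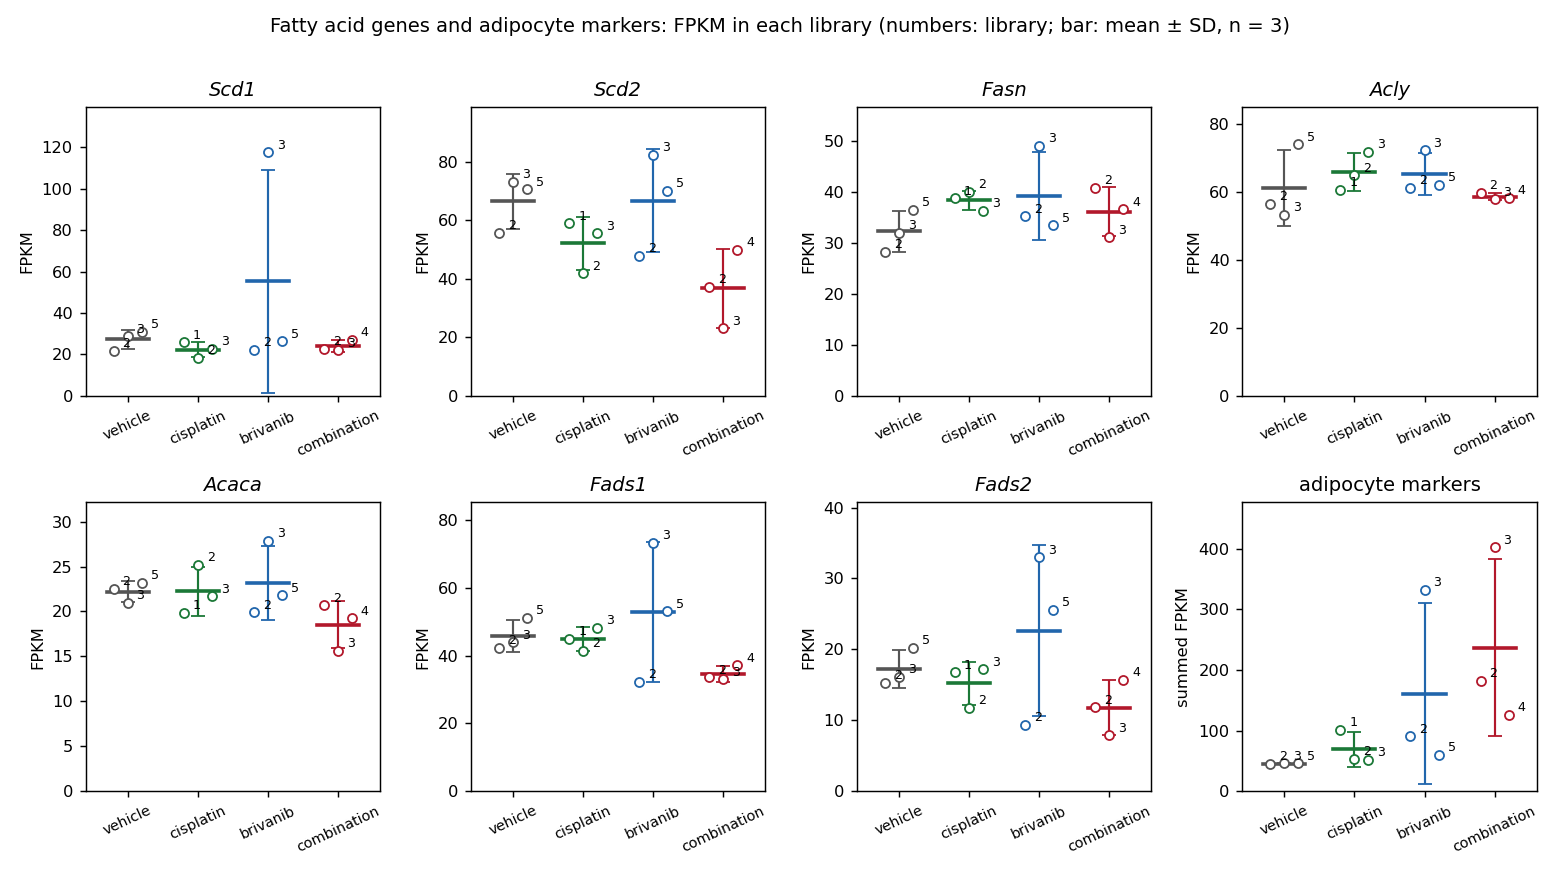
FPKM of 7 fatty acid genes and the summed FPKM of 18 adipocyte markers in each library, by group; circles are libraries with their number, thick lines the mean and error bars the SD of 3 libraries. Scd1 in brivanib 3, at 117 FPKM, stands above the other 11 libraries. The combination libraries lie above vehicle for the adipocyte marker sum, at 126 to 402 FPKM, but not for Scd1. In combination 3 Fabp4 alone gave 273 FPKM of this sum.

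Marker lists were also read in the contrast in which Sqle, Msmo1 and Insig1 fell. Of all genes tested there, 1.82% rose and 0.519% fell past the threshold, and 18.8% had an unadjusted p under 0.05 by limma. Ranges lay wholly above vehicle for 17.2% of all genes and wholly below for 9.35%. Of the 10 tested adipocyte markers 2 rose, and the ranges of all 10 lay above vehicle. With their score as a covariate the median of the 31 genes was -0.77 and 0 were called (0.161% of all genes). The 18 proliferation markers, all at a mean of at least 1 FPKM, summed to 970 to 1148 FPKM in vehicle, 1481 to 1534 in cisplatin, 1043 to 1413 in brivanib and 1329 to 1616 in the combination, and 5 rose in the combination. With the proliferation score as a covariate the median was -1.15, and of all genes tested 0 were called. With the muscle score 7 of the 31 genes were called (2.65% of all genes). All 18 sterol enzymes had negative values with each of these 3 scores in the fit. Each score is the mean log2(FPKM + 1) of its markers. The adipocyte score was 0.87 to 0.88 in vehicle and 1.88 to 2.12 in the combination. The proliferation score was 5.5 to 5.73 in vehicle and 5.94 to 6.24 in the combination. These ranges do not overlap, so neither of these fits can separate its score from treatment. Beyond the fit with the muscle score, the part of these tissues in the sterol gene values was not tested. Of 15 markers of sebaceous glands and keratinocytes, which also make lipid in skin, 2 had a mean of at least 1 FPKM, Far2 and Mgst1, and 1 rose, Mgst1. It had 0.4, 0.811 and 1.52 FPKM in vehicle and 6.29, 6.52 and 6 in the combination. Far2 had 11 to 11.9 FPKM in vehicle and 12 to 12.5 in the combination. Krt1 and Krt5 were listed at 0 in all 12 libraries. The sum of the 15 markers, mostly Far2 and Mgst1, was 18.6 to 20.3 FPKM in the combination and 12.8 to 13.6 in vehicle. Of the 12 endothelial markers 8 lay below vehicle without overlap and 0 were called by limma (6 at an unadjusted p under 0.05), with sums of 116 to 142 FPKM in the combination and 143 to 163 in vehicle. The 3 tested T cell markers were all negative, each at an unadjusted p under 0.05, with a median of -1.19 and 2 without overlap; 0 were called by limma. T cell sums were 1.23 to 4.09 FPKM in the combination and 6.66 to 31.4 in vehicle. Of 12 fibroblast markers 1 fell and 3 lay below vehicle without overlap (sums of 351 to 824 FPKM against 782 to 1284). Of 14 macrophage markers 1 rose and 3 lay above vehicle without overlap (217 to 666 FPKM against 261 to 451). The macrophage values were 8 positive and 6 negative, with a median of 0.07 beside 0.04 over all genes. The part of these 5 lists in the sterol gene values was not tested.

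Compared with brivanib alone, 1 of the 31 genes fell in the combination by limma, Sqle (-1.12 ± 0.22, adjusted p = 0.0215), where 3.87% of all genes were called, 1.85% lower and 2.02% higher (52.3% of calls higher, and 39.2% under median-of-ratios scaling). A negative value was found for 30 of 31 genes, with a median of -0.62 beside 0.04 over all genes, and 5 genes had no overlap in this direction (9.14% of all genes) and 0 in the other (14.1% of all genes). The 5 were Mvd, Sqle, Cyp51, Msmo1 and Acly. Msmo1 (-0.90 ± 0.23, adjusted p = 0.0519) and Cyp51 (-1.23 ± 0.33, adjusted p = 0.0638 by limma) were next. The count was 13 without brivanib 2, the library with low sterol genes (3.21% of all genes called). It was 4 without combination 4 (4.14%) and 2 without cisplatin 3 (3.14%). It was 0 without brivanib 5 (1.5%), combination 2 (1.19%) or combination 3 (0.428%). With the muscle score in the fit 0 were called (3.9% of all genes) and 26 of 31 values were negative, with a median of -0.18. In the same comparison 8 of 12 fibroblast markers fell (median -1.88), with sums of 351 to 824 FPKM in the combination and 1680 to 2200 in brivanib. Of 14 macrophage markers 10 had an unadjusted p under 0.05 by limma, as did 21.7% of all genes, and 0 were called. The macrophage median was -0.95, with sums of 217 to 666 against 687 to 912 FPKM. The 12 muscle markers tested were all negative (median -2.16), with 0 called and 7 at an unadjusted p under 0.05 by limma. The part of these cell types in the values of the 31 genes was not tested apart from the fit with the muscle score. The vehicle and brivanib comparisons share the combination libraries, so they are not independent.

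Compared with cisplatin alone, no gene of the 14246 was called by limma (0%), and 960 (6.74%) had an unadjusted p under 0.05, 5 of the 31 among them. Values were negative for 30 of 31 genes, with a median of -0.37 beside -0.02 over all genes. In 11 genes (35.5%) all combination libraries lay below all cisplatin libraries, against 7.44% of all genes, and 0 lay above (4.94% of all genes). The 11 included Hmgcs1, Fdps, Sqle, Cyp51, Msmo1 and Insig1. The smallest p-values were those of Insig1 (-0.60 ± 0.19, adjusted p = 0.657), Msmo1 (-0.72 ± 0.23, adjusted p = 0.657) and Sqle (-0.66 ± 0.22, adjusted p = 0.682 by limma).

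The interaction contrast asked whether brivanib changed these genes differently with and without cisplatin. Of all genes 0.14% were called and of the 31 genes 0; at an unadjusted p under 0.05 by limma there were 0 of the 31 and 10% of all genes. Values were negative for 30 of 31, with a median of -0.45 beside -0.02 over all genes. The number negative was 15 with the muscle score, 15 with the proliferation score and 18 at equal FPKM totals. It was 29 when ribosomal-like features were removed before equalizing, and 30 with median-of-ratios scaling or quantile normalization. Sqle had -0.62 ± 0.31 (adjusted p = 0.543), Elovl6 -0.56 ± 0.29 (adjusted p = 0.554) and Srebf2 -0.55 ± 0.31 (adjusted p = 0.595 by limma). Elovl6 had 11.2, 17.0 and 15.5 FPKM in vehicle, 14.0, 15.2 and 16.7 in cisplatin, 11.4, 21.3 and 17.9 in brivanib and 13.0, 10.5 and 11.1 in the combination. Rescaling to equal FPKM totals moved the interaction median of the 31 genes to -0.09 while that of all genes moved to 0.31. No gene of the 31 thus passed the test for a combination level different from what the single drugs add up to.

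Neighbouring pathways were read from 5 lists, given here as counts. Of 14 partners of SREBP processing, 15 genes of the isoprenoid, dolichol and ubiquinone branch, 21 tested of 26 other lipogenic genes, 14 genes of the LXR pathway and cholesterol efflux, and 17 tested of 19 genes of cholesterol uptake, storage and trafficking, 0 were called in the combination against vehicle. Of all genes 2.34% were called in that comparison. The medians of the 5 lists there were 0.01, 0.06, -0.01, 0.11 and 0.07, beside 0.04 over all genes and -0.59 for the sterol enzymes. The difference between the lists was not tested. In brivanib against vehicle Ch25h, which makes the oxysterol 25-hydroxycholesterol, a ligand of INSIG, had 3.05 ± 0.513 FPKM in vehicle and 10.6 ± 4.26 with brivanib (SD, n = 3). Ch25h rose by 1.46 ± 0.30 (adjusted p = 0.03 by limma). Ch25h in the combination was at 1.80 ± 1.06 FPKM, below brivanib by -2.06 ± 0.30 (adjusted p = 0.00779 by limma). Nceh1, which hydrolyses cholesterol esters, fell by 0.52 ± 0.11 with brivanib (adjusted p = 0.0279 by limma). Erlin1, a membrane protein of the endoplasmic reticulum linked to SREBP retention, was higher in the combination than in brivanib by 0.44 ± 0.10 (adjusted p = 0.0377 by limma). No gene of the 5 lists was called with cisplatin, in the combination against cisplatin or in the interaction. Of all genes 0.19%, 0% and 0.14% were called in these contrasts. In the combination against cisplatin none of the 14246 genes was called, so the same holds there for any list.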

How the data were processed

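RNA from 12 LLC tumours, 3 per treatment group, was sequenced on a BGISEQ-500 per the labels' design text. The authors aligned reads with Bowtie2 and deposited FPKM values per transcript from RSEM, per the labels. Versions in the submitters' processing notes are Bowtie2 2.2.5 and RSEM 1.2.12; HISAT, Bowtie and build mm9 appear there too, but mm10 in the design text. Of 135276 transcripts 134952 were found in GENCODE M21 on GRCm38 (mm10), 98.46% with identical coordinates, so positions are on GRCm38. A per-sample column that matched no sample label (1) was not used, and 3 broken lines were dropped. No strand setting is given in the sources used here.

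FPKM was summed per gene. RSEM splits fragments among isoforms and similar copies, so values of single transcripts are uncertain. Values up to 100 fragments were whole (tolerance 0.01 fragments) in 100% of cases in each library, which gave the depth and a voom alternative that called the same number of genes among the 31 (3) in the combination against vehicle. Group means were fitted with limma 3.58.1 in R 4.3.3 to log2(FPKM + 1) of all 12 libraries (8 residual degrees of freedom, mean-variance trend, two-sided tests) for genes with a mean of at least 1 FPKM. The log2(FPKM + 1) scale understates changes of low genes. Benjamini-Hochberg adjustment ran over all 14246 genes tested. The procedure was run on simulated data with independent noise for each gene. These lack the tissue mixture and outlying libraries of the real data, so they do not show how stable the calls are. The rule for the genes described uses no measured value, but they and the lists were chosen with earlier results of these data known. All 31 genes are accounted for; named in full are those called, the 3 with the smallest p where none was called, and Srebf1, Srebf2, Insig1, Scap, Sqle, Fasn and Scd1; of each pathway list at most 4 called genes are named. Alternatives covered scaling, pseudocount, filter, covariates, transcripts, the replicate block and leaving out each library; the version of Tm7sf2 without the Vps51 transcript was added after the data were seen.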

Additional observations from a re-analysis of the deposited data

How the results depend on the processing

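The values are limited by 3 libraries per group, tumours that may share animals, and the mixture of carcinoma and host tissue; each gene had at least 94 fragments in each library. The genes of the combination against vehicle that passed the threshold numbered 3, and 14 of 28 alternatives kept the count within 1.5 times. It was 0 with no filter on low values (0.395% of all genes called), the replicate block (0.246%) or the adipocyte score (0.161%). It was also 0 with the proliferation score (0%) or the most abundant transcript per gene (0.581%). With only the 2 groups in the fit it was 6 (2.38%), and with the muscle score 7 (2.65%). Leaving out 1 library gave 0 to 7 (0.147% to 3.69% of all genes). For the combination against brivanib the count was 1 (3.87% of all genes). It was 0 after rescaling to equal FPKM totals (1.99%), with only the 2 groups (0.969%), with the muscle score (3.9%) or with the most abundant transcript (1.88%). It was 2 with median-of-ratios scaling (3.6%), quantile normalization (3.67%) or the adipocyte score (3.72%), and 7 with the proliferation score (2.46%). Leaving out 1 library gave 0 to 13 (0.428% to 4.53% of all genes). In the other 4 contrasts 0 genes were called in every setting run. The interaction cannot be fitted with fewer than 4 groups, so that alternative gave no value. Calls over all genes ranged from 0 to 525 (333 as reported) for the combination against vehicle, from 61 to 712 (551) against brivanib, from 0 to 3 (0) against cisplatin, from 0 to 100 (27) for cisplatin, from 17 to 377 (258) for brivanib and from 0 to 45 (20) for the interaction. The cause of these shifts was not tested.

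The median over the 31 genes was -0.17 for cisplatin (-0.83 with the proliferation score) and 0.02 for brivanib (-0.34 at equal totals, where the median of all genes was -0.34 too, -0.35 with the muscle score and -0.30 with the proliferation score). It was -0.43 for the combination against vehicle, -0.77 with the adipocyte and -1.15 with the proliferation score, and -0.36 to -0.62 with a library left out. Against brivanib it was -0.62, and -0.33 at equal totals, -0.18 with the muscle score and -0.36 to -0.84 with a library left out, the weakest without brivanib 3. For the interaction it was -0.45, and -0.09 at equal totals, 0.01 with the muscle score, 0.00 with the proliferation score and -0.18 to -0.70 with a library left out. At equal totals the median of all genes was 0.31 both in the combination against brivanib and in the interaction.

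Signs turned for genes near 0. Fasn was at -0.28 for cisplatin with the proliferation score, at -0.10 (equal totals) and -0.01 (proliferation score) for brivanib, and at -0.09 (adipocyte score) and -0.32 (proliferation score) for the combination. Ebp in brivanib was at -0.09, -0.01 and -0.02 at equal totals and with the muscle and proliferation scores. In the combination against vehicle Scap was at -0.08 (replicate block), -0.10 (adipocyte score), -0.02 (proliferation score) and -0.01 (without combination 4), Acly at 0.04 (voom), 0.01 (replicate block) and 0.09 (without vehicle 5; -0.14 to 0.09 with a library left out), Hsd17b7 at 0.00 without vehicle 3 or combination 2 (-0.22 to 0.00 with a library left out), and Dhcr7 at 0.27 with its most abundant transcript. Sqle in the interaction was at 0.30 with its most abundant transcript.

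The labels share replicate numbers between groups. Over all genes tested, deviations from the group means correlated at -0.16 to 0.21 between same-numbered libraries (median -0.01, 13 pairs). Other pairs correlated at -0.23 to 0.23 (median 0.02, 41 pairs). Such correlations cannot exclude a shared animal or batch. Number 2 was the lowest of its group for 27 of the 31 genes in vehicle, 22 in cisplatin, 27 in brivanib and 9 in the combination. With the replicate block the count in the combination against vehicle went from 3 to 0 (2.34% to 0.246% of all genes), with a median of -0.56. Against brivanib it stayed at 1 (Sqle).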
